A study of Mus musculus with 15 samples.

Results

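The genes described here are 10 members of the BCL2 family of the mouse, measured by RNA-seq in MH-S cells, out of 78317 gene identifiers in the count table. They were taken by symbol, with earlier results of these data known. They comprise the survival genes *Bcl2*, *Bcl2a1b*, *Bcl2a1d*, *Bcl2l1* and *Mcl1*, the effectors *Bax* and *Bak1*, and the BH3-only genes *Bcl2l11*, *Pmaip1* and *Bbc3*. All 10 passed the filter on low counts, which left 16654 genes for testing. MH-S is a line of murine alveolar macrophages transformed with SV40, a virus whose large T antigen is known to bind p53. The 15 libraries formed 5 groups of 3 wells, and every well was harvested after 24 h. M0 cells received medium alone, M1 cells received LPS at 1 µg/mL together with IFN-γ at 20 ng/mL, and M2 cells received IL-4 at 20 ng/mL. The CaP and SiO2 groups received microrods built from calcium phosphate or silica nanoparticles at 0.1 mg/mL, in both cases joined with alginate and coated with protamine and carboxymethyl chitosan. The wells shared 1 cell passage, and each rod-treated well had its own particle preparation, so p-values measure the spread between wells and preparations of that passage.

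BCL2 family proteins decide whether the outer membrane of the mitochondrion stays intact. BAX and BAK open the membrane and release cytochrome c, which activates caspases, whereas BCL2, BCL-XL (the product of *Bcl2l1*), MCL1 and A1 (the product of the *Bcl2a1* copies) hold them in check. BH3-only proteins such as BIM (*Bcl2l11*), NOXA (*Pmaip1*) and PUMA (*Bbc3*) bind the survival proteins and thereby promote death, and NOXA is known to bind MCL1 and A1 in particular. In macrophages and other leukocytes A1 is a known target of NF-κB, and the mouse carries several nearly identical copies of its gene.

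These copies are shown first, since their similarity bears on how reads were assigned to *Bcl2a1b* and *Bcl2a1d*. In GENCODE on GRCm38, a build other than the GRCm39 of the counts, *Bcl2a1a* lies at chr9:88956900-88962419 on the plus strand, *Bcl2a1b* at chr9:89199209-89207827 on the plus strand and *Bcl2a1d* at chr9:88723285-88731914 on the minus strand. The first 60 coding bases, in the first coding exon, hold 6 positions at which the copies are not all alike, and these are in capitals below.
Bcl2a1a: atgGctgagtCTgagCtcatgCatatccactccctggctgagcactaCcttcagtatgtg
Bcl2a1b: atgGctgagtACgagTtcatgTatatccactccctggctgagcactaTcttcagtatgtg
Bcl2a1d: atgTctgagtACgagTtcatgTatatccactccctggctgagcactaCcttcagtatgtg
Over the whole coding sequence of 519 bases, *Bcl2a1b* and *Bcl2a1d* differed at 6 positions (98.84% identity), and counted from the A of the start codon the substitutions from *Bcl2a1b* to *Bcl2a1d* were G4T, T48C, A94C, G312A, C381G and T490A. Of all windows of the read length of 75 bases, 43.47% of those in the *Bcl2a1b* transcript and 67.55% of those in *Bcl2a1d* also occurred in another of the 3 copies, so a single read from there fits more than 1 gene.

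The sequence just before the genes is alike as well. The stretches below come from RefSeq upstream sequences on GRCm38.p6, *Bcl2a1b* at chr9:89199023-89199164 on the plus strand and *Bcl2a1d* at chr9:88731915-88732050 on the minus strand, and end 44 and 0 bases before the GENCODE gene. Capitals mark bases that have no identical partner in the alignment of both stretches.
Bcl2a1b: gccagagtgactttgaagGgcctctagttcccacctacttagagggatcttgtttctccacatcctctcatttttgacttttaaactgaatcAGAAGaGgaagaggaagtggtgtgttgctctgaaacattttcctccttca
Bcl2a1d: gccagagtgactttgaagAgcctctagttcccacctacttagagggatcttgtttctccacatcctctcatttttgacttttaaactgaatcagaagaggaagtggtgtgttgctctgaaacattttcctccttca
They were identical in 135 of 142 aligned columns (95.1%).

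Each library held between 8459643 and 68750050 counts, with a median of 14879931. The stimulus genes followed the labels, with *Il1b* at 411 CPM in M1 and 1.07 CPM in M0, and *Arg1* at 1550 CPM in M2 and 11.0 CPM in M0, where CPM are counts per 1000000 counts of the TMM-scaled library. Of 8 general macrophage markers, 7 were above 1 CPM in every group, but of 10 markers that define alveolar macrophages in the lung 0 were above 1 CPM in M0, and *Ear2* had no count in any library. The summed level of the macrophage markers was 1421 to 2167 CPM in M2 and 2683 to 3629 CPM in M0. *Lyz2* carried most of this gap, at 368 and 1847 CPM. The markers did not all fall, since *Adgre1* had 195 CPM in M2 and 61.8 CPM in M0, and *Cd68* 954 and 979 CPM. The summed level of the alveolar list was 13.5 to 16.7 CPM with CaP rods and 1.48 to 2.21 CPM in M0. *Atp6v0d2* carried most of this gap, at 14.3 and 0.776 CPM, whereas *Pparg* had 0.458 and 0.482 CPM and *Siglecf* 0.0454 and 0.0738 CPM. The part of these shifts in the results for M2 and CaP rods was not tested. Of 15 markers of other lung cells at most 1 was above 1 CPM in a group, with summed levels of 0.232 to 2.94 CPM. M2 replicate 2, M0 replicate 3 and SiO2 replicate 2 stood apart from their groups on the second principal component of the libraries (scores of -43.88, -42.73 and -21.66). Each also had the lowest total count of its group (8594947, 8459643 and 12646926), and the part of depth in these scores was not tested. These are bulk RNA data, in which a change of RNA per cell cannot be told from a change in the number of cells that carry it.

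Per length, *Bax* was the most abundant member, at 518 CPM per kb of transcript on average over all libraries. It was followed by *Bcl2a1d* (108 CPM per kb), *Bcl2a1b* (55.0), *Bcl2l1* (47.0) and *Mcl1* (41.6), and then by *Pmaip1* (7.10), *Bak1* (4.63), *Bbc3* (3.91), *Bcl2* (0.902) and *Bcl2l11* (0.825). This average includes the high M1 values of the A1 genes, and the order differed between groups. In M0 *Bax* was followed by *Bcl2a1d* (51.5 CPM per kb), *Mcl1* (50.5), *Bcl2a1b* (30.4) and *Bcl2l1* (17.9). With CaP and SiO2 rods *Bcl2l1* (64.5 and 52.7) was slightly above *Bcl2a1d* (62.7 and 52.1). The lowest count of a member in a library was 19, for *Bcl2l11*.

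**Figure D1:**
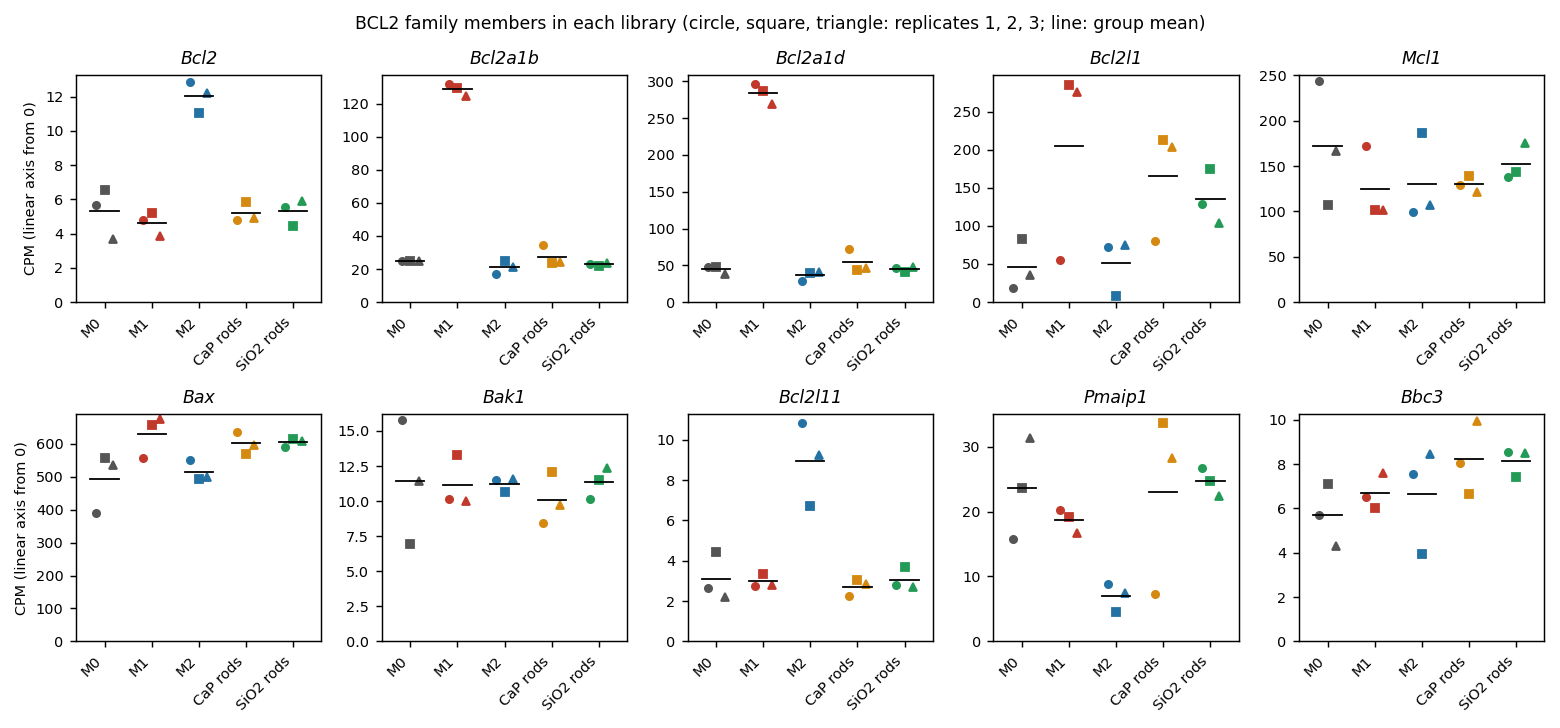
Level of each of the 10 BCL2 family members in CPM (linear axis from 0) in the 15 libraries by group. Points are libraries, their shape gives the replicate number and the line is the mean of 3 libraries. *Bcl2a1b* and *Bcl2a1d* stand out in M1, *Bcl2* and *Bcl2l11* in M2, and *Bcl2l1* is spread widely within groups.

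In M1 cells both A1 genes rose and no other member was called. *Bcl2a1b* had 132, 129 and 124 CPM in the M1 libraries against 24.9, 25.0 and 24.6 CPM in M0. All M1 libraries were above all others of the series. The fitted log2 fold change was 2.37 ± 0.18 (SE, adjusted p = 8.769e-07 from edgeR's quasi-likelihood test with Benjamini-Hochberg adjustment over all genes), a 5.18-fold difference. *Bcl2a1d* had 296, 287 and 270 CPM in M1 and 48.4, 47.2 and 37.9 CPM in M0, a log2 fold change of 2.67 ± 0.21 (SE, adjusted p = 1.413e-06 from edgeR). Both calls were kept in all settings run. Genes counted as called when the adjusted p fell under 0.05 and the log2 fold change went beyond 0.5 in either direction, and 14.1% of all genes tested met this in M1 against M0 (9.7% higher and 4.37% lower in M1). The 2 of 10 members called are not far from that share. The median log2 fold change of the members was 0.08, against -0.01 over all genes tested.

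Because reads of the copies can be exchanged, the counts were also summed before the fit. *Bcl2a1b* and *Bcl2a1d* together had 413 ± 17.0 CPM (SD, n = 3) in M1 and 69.3 ± 5.97 CPM in M0, a log2 fold change of 2.57 ± 0.20 (SE, adjusted p = 9.195e-07 from edgeR). With *Bcl2a1a*, which is not among the 10, the log2 fold change was 2.59 ± 0.21 (SE, adjusted p = 1.37e-06). The sum of 3 copies does not depend on how counts were split among them, whereas the separate values and the sum of *Bcl2a1b* and *Bcl2a1d*, which leaves out *Bcl2a1a*, do. *Bcl2a1d* took 47.3 ± 0.257% of the summed count of the 3 copies in M0 and 50.1 ± 0.409% in M1. *Bcl2a1b* took 26.7 ± 3.37% in M0 and 22.7 ± 0.511% in M1. In the other groups *Bcl2a1d* held mean shares between 46.7% and 48.6%.

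**Figure D2:**
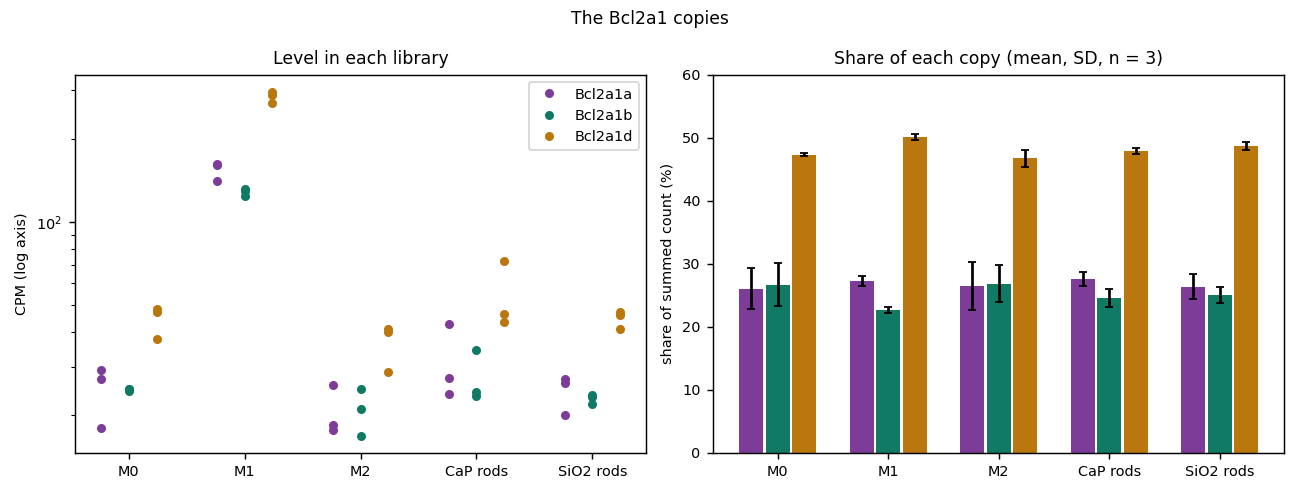
Left, level of *Bcl2a1a*, *Bcl2a1b* and *Bcl2a1d* in CPM (log axis) in each library by group. Right, mean share of each copy in the summed count of the 3 in percent, with the SD over 3 libraries as error bars. All 3 copies are high in M1 at nearly constant shares, with *Bcl2a1d* between 46.7% and 50.1% in every group.

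*Bcl2l1*, which encodes BCL-XL, had the widest spread of the members. Its M0 libraries had 19.1, 83.4 and 35.4 CPM, its M1 libraries 55.2, 285 and 276 CPM and its M2 libraries 72.2, 8.42 and 74.3 CPM. With CaP rods the values were 80.5, 213 and 203 CPM, and with SiO2 rods 128, 174 and 104 CPM. M0 and M1 overlapped, since M1 replicate 1 was below M0 replicate 2, and so did M0 and CaP. The SiO2 libraries lay above all M0 libraries. The SD within groups was 1.18 on the log2 scale, and 97.0% of the 10339 genes with a mean of at least 5 CPM had less. The M1 mean exceeded the M0 mean by a log2 fold change of 2.16 ± 0.76 (SE, 95% interval 0.54 to 3.79), which was not called (adjusted p = 0.07386 from edgeR). It was called by DESeq2 (adjusted p = 0.02021) and by edgeR without M1 replicate 1 (0.03512) or M2 replicate 2 (0.03241).

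Replicate 1 of M0, M1 and CaP, replicate 2 of M2 and replicate 3 of SiO2 had the lowest *Bcl2l1* level of their groups. In these libraries the slope of log2 counts on transcript GC content, relative to the other libraries, was -0.336, -0.338, 0.0158, -0.170 and -0.0119 per 10 percentage points of GC. Each was the lowest slope of its group. The other slopes were 0.0277 and -0.212 in M0, 0.0460 and 0.0822 in M1, and 0.281 and 0.235 in M2. They were 0.0945 and 0.231 with CaP rods, and 0.0239 and 0.0304 with SiO2 rods. The transcript of *Bcl2l1* has 55.88% GC. With an offset for GC content in each library the SD within groups was 1.02, still above that of 95.03% of the genes, and the part of GC in the spread was not tested beyond this. The genes whose log2 CPM ran most alike over the 15 libraries were *Hmga1* (Pearson's r = 0.97), *Por* (0.97) and *Dok3* (0.97), which were looked up after the spread was seen. They share the same libraries, and their transcripts have 58.3% to 62.0% GC.

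**Figure D3:**
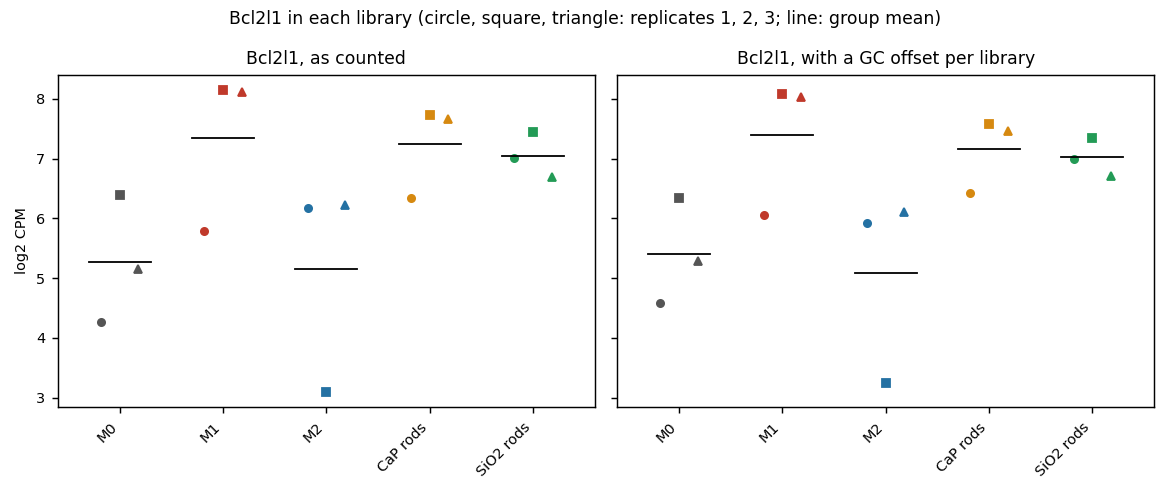
*Bcl2l1* in log2 CPM in each library by group, as counted (left) and with an offset for GC content per library (right). Points are libraries, their shape gives the replicate number and the line is the group mean. The offset moves the SD within groups from 1.18 to 1.02, and M2 replicate 2 is the lowest library in both panels.

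Of the other members, *Bax* was nearest to a call in M1. The M1 libraries had 557, 658 and 677 CPM and the M0 libraries 389, 556 and 535 CPM, so the groups did not overlap by a margin of about 1 CPM. The log2 fold change was 0.36 ± 0.15 (SE, adjusted p = 0.1321 from edgeR). With the GC offset it was 0.26 ± 0.18 (SE, adjusted p = 0.3854 from edgeR). The groups then overlapped, with a log2 CPM of 9.33 in M0 replicate 3 and 9.29 in M1 replicate 2. *Mcl1*, a survival gene with a short-lived protein, had 172, 102 and 102 CPM in M1 and 244, 107 and 167 CPM in M0, with a log2 fold change of -0.46 ± 0.31 (SE, adjusted p = 0.3527). The libraries of 3 members, both A1 genes and *Bax*, did not overlap between M1 and M0, as held for 32.2% of all genes tested. *Bcl2*, *Bak1*, *Bcl2l11*, *Pmaip1* and *Bbc3* overlapped, with adjusted p-values between 0.5505 and 0.9203.

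In M2 cells *Bcl2* and *Bcl2l11*, a survival gene and a death gene of the family, were both higher than in M0. *Bcl2* had 12.8, 11.1 and 12.2 CPM in M2 and 5.66, 6.57 and 3.71 CPM in M0. The highest *Bcl2* level outside M2 was 6.57 CPM, below each of the M2 values. The log2 fold change was 1.15 ± 0.21 (SE, adjusted p = 0.006972 from edgeR), or 2.22-fold. *Bcl2l11*, which encodes BIM, had 10.8, 6.71 and 9.23 CPM in M2 and 2.63, 4.42 and 2.20 CPM in M0, a log2 fold change of 1.54 ± 0.27 (SE, adjusted p = 0.004284) or 2.91-fold. It too was above all 12 other libraries in every M2 library. Both calls were kept in all settings run, with adjusted p-values of at most 0.03555 and 0.04104.

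*Pmaip1*, which encodes NOXA, was lower in M2. It had 8.87, 4.47 and 7.43 CPM there and 15.7, 23.7 and 31.3 CPM in M0, without overlap. The log2 fold change was -1.71 ± 0.45 (SE), and the adjusted p of 0.04928 from edgeR was just inside the threshold. The call was lost without any 1 of the M0, M1, M2 or SiO2 libraries or CaP replicate 3 (adjusted p from 0.05778 to 0.1501), without M0 replicate 3, M2 replicate 2 and SiO2 replicate 2 together (0.1797), with counts thinned to the smallest library (0.06562) and with the GC offset (0.08441). Its direction was the same in all of these.

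Of the 10 members 3 were thus called in M2, where 4.13% of all genes were (2% higher and 2.13% lower in M2). The libraries of these 3 members did not overlap with M0, as held for 15.2% of all genes. The median log2 fold change of the members was 0.01, against 0.07 over all genes. The A1 genes were not called, with 16.9, 24.9 and 21.1 CPM of *Bcl2a1b* and 28.8, 40.1 and 41.0 CPM of *Bcl2a1d* in M2 (adjusted p = 0.5196 and 0.5359 from edgeR). *Mcl1* had 98.9, 186 and 107 CPM in M2 (adjusted p = 0.5602), and *Bax* 552, 494 and 498 CPM (adjusted p = 0.8848). *Bbc3* had 7.57, 3.95 and 8.46 CPM in M2 (adjusted p = 0.6786), overlapping with M0, and *Bcl2l1* had an adjusted p of 0.9261. *Bak1*, the effector that stands beside *Bax*, had its lowest and its highest level of the series both in M0, at 15.8, 6.96 and 11.5 CPM, so its M0 range enclosed the 11.5, 10.7 and 11.6 CPM of M2 and every other library (adjusted p = 0.965 in M2).

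M1 and M2 differed in 5 of the 10 members, against 16.1% of all genes (10.6% higher and 5.46% lower in M1), and the libraries of 6 members, these and *Bax*, did not overlap, against 29.4% of all genes. *Bcl2a1b* and *Bcl2a1d* were higher in M1, by log2 fold changes of 2.62 ± 0.18 (SE, adjusted p = 2.92e-07 from edgeR) and 2.96 ± 0.22 (SE, adjusted p = 4.582e-07). *Bcl2* was lower in M1 with a log2 fold change of -1.37 ± 0.22 (SE, adjusted p = 6.547e-04), as was *Bcl2l11* with -1.60 ± 0.28 (SE, adjusted p = 0.00115). *Pmaip1* was higher in M1, at 20.2, 19.1 and 16.7 CPM, by a log2 fold change of 1.39 ± 0.45 (SE, adjusted p = 0.04932). This last call was lost without any 1 of the M1, M2 or SiO2 libraries, M0 replicate 2 or CaP replicate 3 (adjusted p from 0.05779 to 0.1265), without the 3 outlying libraries together (0.08079), with thinned counts (0.07537) and with the GC offset (0.0762). *Bcl2l1* was not called (log2 fold change 1.97, adjusted p = 0.0938), but was by DESeq2 (0.03598), without M1 replicate 1 (0.04793) and with the GC offset (0.04621).

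With CaP rods 0 of the 10 members were called against M0, where 0.654% of all genes were. DESeq2 called 0 as well, and 1 member, *Bcl2l1*, had an unadjusted p below 0.05 in edgeR. Its CaP mean was above that of M0 by a log2 fold change of 1.85 ± 0.75 (SE, 95% interval 0.24 to 3.46, adjusted p = 0.2598). *Bbc3*, which encodes PUMA, had 8.06, 6.64 and 9.97 CPM with CaP rods and 5.72, 7.09 and 4.29 CPM in M0, with a log2 fold change of 0.52 ± 0.26 (SE, adjusted p = 0.3462). *Bax* had 638, 570 and 598 CPM with CaP rods, all above M0, with a log2 fold change of 0.29 ± 0.15 (SE, adjusted p = 0.3571). With the GC offset the value of *Bax* was -0.06 and that of *Bbc3* was 0.16, and their transcripts have 63.55% and 65.22% GC. *Bax* was the 1 member whose CaP and M0 libraries did not overlap, as held for 17.4% of all genes. The median log2 fold change of the members was 0.06, against 0.06 over all genes.

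*Pmaip1* was uneven among the CaP libraries, at 7.28 CPM in replicate 1 and 33.6 and 28.2 CPM in the others. Replicate 1 was thus within the range of the M2 libraries, replicate 3 within that of M0 and replicate 2 above that of M0. *Bcl2a1d* was highest in that same library, at 72.4 CPM against 43.4 and 46.7 CPM, as was *Bcl2a1b*, at 34.4 CPM against 23.5 and 24.4 CPM. Without CaP replicate 1 the log2 fold change of *Bcl2a1d* over M0 changed from 0.28 to -4.142e-04.

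With SiO2 rods 0 of the 10 members were called against M0 either, where 0.264% of all genes were, and 0 had an unadjusted p below 0.05 or were called by DESeq2. *Bcl2l1* had the largest log2 fold change, 1.56 ± 0.74 (SE, 95% interval -0.04 to 3.16, adjusted p = 0.6302 from edgeR). *Bax*, at 592, 616 and 610 CPM, and *Bbc3*, at 8.56, 7.41 and 8.48 CPM, were above all M0 libraries, with log2 fold changes of 0.30 ± 0.15 (SE, adjusted p = 0.6549) and 0.50 ± 0.26 (SE, adjusted p = 0.6795). With the GC offset these values were 0.05 and 0.26. In all, the libraries of 4 members did not overlap with M0, against 18% of all genes. Those of *Bcl2l1*, *Bax* and *Bbc3* lay above M0. Those of *Bcl2a1b* lay below it, at 23.2, 22.1 and 23.8 CPM, with a log2 fold change of -0.11 ± 0.17 (SE) that was not called. The median log2 fold change of the members was -0.01, against -0.02 over all genes. The CaP, SiO2, M1 and M2 comparisons used the same M0 libraries, so their values are not independent of each other.

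Between both rods 0 members were called, against 0.018% of all genes, and 0 had an unadjusted p below 0.05 in edgeR or were called by DESeq2. The libraries of all 10 overlapped, whereas those of 8.1% of all genes did not. The interval of the CaP to SiO2 difference was narrowest for *Bax*, from -0.32 to 0.31 on the log2 scale, and widest for *Bcl2l1*, from -1.26 to 1.84. For *Bcl2a1b* it ran from -0.12 to 0.62, for *Bcl2a1d* from -0.16 to 0.70, for *Bak1* from -0.72 to 0.36, for *Bcl2* from -0.51 to 0.40, for *Mcl1* from -0.89 to 0.42, for *Bcl2l11* from -0.76 to 0.41, for *Pmaip1* from -1.01 to 0.79 and for *Bbc3* from -0.52 to 0.56. A log2 difference of 1 in either direction thus lay outside the intervals of all members other than *Bcl2l1* and *Pmaip1*.

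**Figure D4:**
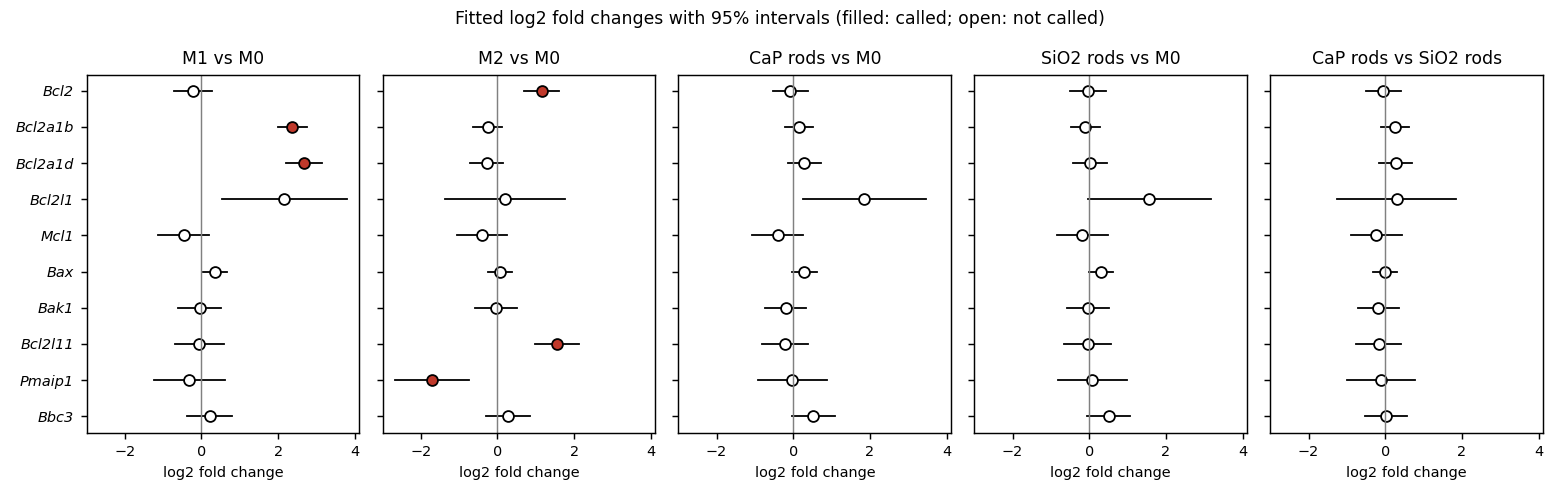
Fitted log2 fold changes of the 10 members (horizontal axis) in 5 comparisons, with 95% intervals from edgeR's quasi-likelihood fit of 15 libraries. Filled points are called and open points are not. The 2 called members in M1 and the 3 in M2 are the filled ones, and every rod panel has 0 filled points.

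Ordered by group mean, *Bcl2* ran from M2 (12.02 CPM) over M0 (5.31), SiO2 (5.30) and CaP (5.18) to M1 (4.63), and no neighbours below M2 were called apart. *Bcl2a1b* ran from M1 (129 CPM) over CaP (27.4), M0 (24.8) and SiO2 (23.1) to M2 (21.0), where M1 differed from CaP (adjusted p = 1.38e-06 from edgeR, in a comparison that called 12.7% of all genes) and the rest were not called apart from their neighbours. *Bcl2a1d* had M1 (284 CPM) and CaP (54.1 CPM) at the top with a difference between them (adjusted p = 3.552e-06), and SiO2 (44.9), M0 (44.5) and M2 (36.6) without one. *Bcl2l1* ran from M1 (205 CPM) over CaP (166), SiO2 (135) and M2 (51.6) to M0 (46.0), and no neighbours were called apart. *Bcl2l11* ran from M2 (8.93 CPM) over M0 (3.09), SiO2 (3.06) and M1 (2.97) to CaP (2.72), with a call between the first and the second. *Mcl1* means lay between 125 CPM in M1 and 172 CPM in M0, *Bax* means between 493 CPM in M0 and 631 CPM in M1, *Bak1* means between 10.1 CPM with CaP and 11.4 CPM in M0, and *Bbc3* means between 5.70 CPM in M0 and 8.22 CPM with CaP, with no neighbours called apart. *Pmaip1* was lowest in M2 (6.92 CPM) and between 18.7 and 24.6 CPM elsewhere.

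Within a library, the level of a survival member can be set against that of a death member on the scale of log2 CPM per kb. *Bcl2a1b* and *Bcl2a1d* together exceeded *Pmaip1* by 6.10, 6.14 and 6.26 in the M1 libraries and by 3.92, 3.31 and 2.70 in M0. The M1 libraries were above all others, M2 followed with 4.06, 5.56 and 4.76, and CaP replicate 1 reached 5.57 against 2.69 and 3.03 in its group. For *Mcl1* over *Pmaip1* the differences were 2.76, 2.09 and 2.28 in M1 and 3.63, 1.85 and 2.09 in M0. Those of M2 were 3.15, 5.05 and 3.52, and M1 and M2 both overlapped with M0. *Mcl1* exceeded *Bcl2l11* by 3.75, 5.35 and 4.09 in M2 and by 7.09, 5.15 and 6.80 in M0, with an overlap through M2 replicate 2. *Bcl2* was below *Bax* in every library, with differences of -8.19 to -8.06 in M2 and -9.88 to -8.81 in M0. *Bcl2l1* was below *Bax* too, with differences of -4.56 to -2.43 in M1 and -5.57 to -3.96 in M0, which overlap. These differences restate member values of the same libraries and were not tested.

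**Figure D5:**
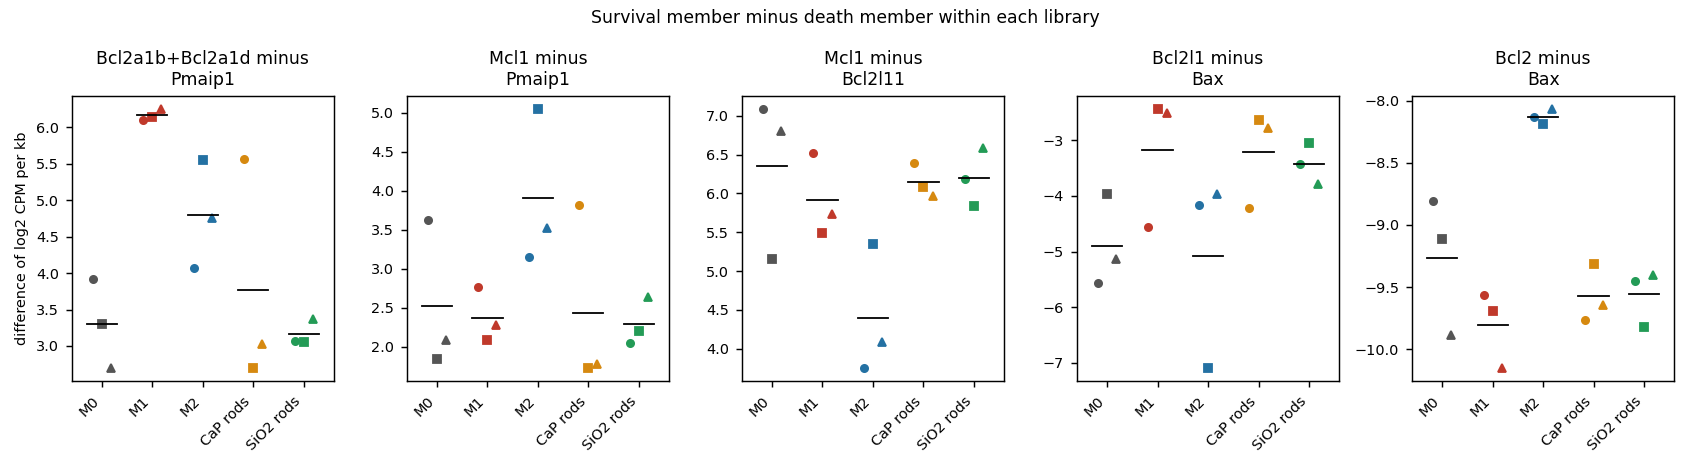
Difference of log2 CPM per kb between a survival member (or the sum of both A1 genes) and a death member within each library, by group, with each panel on its own axis. Points are libraries, their shape gives the replicate number and the line is the group mean. The sum of the A1 genes minus *Pmaip1* is 6.10 to 6.26 in M1, above every other library.

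The genes whose log2 CPM was most like that of a called member over the 15 libraries, among those with a mean of at least 5 CPM, are given by Pearson's r as a description. They were *Mgl2* (0.95), *Clec10a* (0.92) and *Ubl3* (0.92) for *Bcl2*, and *Sh2b2* (0.95), *Naaa* (0.95) and *Klhl33* (0.94) for *Bcl2l11*. *Bcl2a1b* was nearest to *Bcl2a1d* (1.00), *Ccl5* (0.98) and *2010005H15Rik* (0.98), and *Bcl2a1d* to *Bcl2a1b*, *Bcl2a1a* (0.99) and *2010005H15Rik* (0.99). *Pmaip1* was nearest to *Pls3* (0.95), *Eepd1* (0.94) and *Tlr2* (0.94).

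Of 60 tested genes from 6 lists around the family, 24 were called in M1 against M0 (19 higher and 5 lower), 3 in M2 (2 higher and 1 lower), 3 with CaP rods (all higher) and 0 with SiO2 rods or between the rods. Of all genes tested, 14.1% were called in M1, 4.13% in M2, 0.654% with CaP rods, 0.264% with SiO2 rods and 0.018% between the rods. DESeq2 called 3 with SiO2 rods, and 13 of the 60 had an unadjusted p below 0.05 in edgeR there, against 2 between the rods. The shares over all genes given here hold for edgeR's calls only. Those for DESeq2 and for an unadjusted p are not given, so these counts are not read as an excess. The median log2 fold changes of the 60 were 0.49 in M1, 0.05 in M2, 0.12 with CaP and -0.01 with SiO2 rods, beside the medians over all genes given above.

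In M1, 7 of 10 survival targets of NF-κB were called, all higher. *Traf1*, an adaptor of TNF receptors, had 35.5 ± 6.16 CPM in M1 and 5.03 ± 1.66 CPM in M0 (log2 fold change 2.83, adjusted p = 5.986e-06 from edgeR), *Nfkbia*, the inhibitor of NF-κB, rose by 2.13 and the superoxide dismutase gene *Sod2* by 1.86. Of 12 other BCL2 family genes 3 rose and 3 fell. *Bik*, a BH3-only gene, had 7.01 ± 0.637 CPM in M1 and a mean of 0.0386 CPM in M0 (adjusted p = 1.312e-08), too little for a fold, and the copies *Bcl2a1a* and *Bcl2a1c* rose by 2.63 and 1.96. *Bcl2a1c* was low and uneven in M0, at 2.03, 0.976 and 0.116 CPM, against a mean of 5.08 CPM in M1, so its fold is uncertain. The BH3-only gene *Bmf* fell by 2.38 on the log2 scale, and the mitophagy receptor genes *Bnip3* and *Bnip3l* fell by 1.32 and 0.97. Of 17 genes for caspases, the apoptosome and their inhibitors 2 were called, the inhibitors of apoptosis *Birc3* (0.88) and *Xiap* (0.84).

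Of 12 p53 targets 6 rose in M1 and 1 fell. Those with the largest changes were the death receptor gene *Fas* (log2 fold change 1.83), *Gadd45a* (1.76, from 0.240 to 1.07 CPM), *Btg2* (1.497) and, lower, *Sesn1* (-0.94). Of 6 genes of the integrated stress response, *Ddit3*, which encodes the transcription factor CHOP, rose by 2.45 and *Trib3* by 2.17, and of 6 genes around FOXO factors and MCL1 turnover *Foxo3* fell by 1.30. The calls of *Bcl2a1c* and *Gadd45a* were each lost in fits without single M0 or M1 libraries (adjusted p of at most 0.08817 and 0.09492), as were those of *Birc3*, *Xiap*, *Sesn1*, *Trib3* and *Foxo3* (at most 0.109, 0.0606, 0.08374, 0.07007 and 0.07417). In all, *Gadd45a* was not called in 10 of 24 settings, DESeq2 among them (adjusted p = 0.06503). *Xiap* also lost its call in edgeR without a filter (0.1228), and *Sesn1* without the 3 outlying libraries (0.05588). The remaining genes named for M1 were called in every setting run.

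In M2, the executioner caspase gene *Casp6* had 614 ± 138 CPM against 77.9 ± 5.33 CPM in M0, a log2 fold change of 2.98 ± 0.20 (SE, adjusted p = 1.154e-06 from edgeR), and was called in every setting run. *Ier3*, an NF-κB target that limits death, was higher by 2.27 (adjusted p = 0.01565) and *Nfkbia* lower by a log2 fold change of -0.64 (adjusted p = 0.04025). *Ier3* was not called without M0 replicate 1 or 3 or M2 replicate 1 or 3 (adjusted p of at most 0.08537), nor *Nfkbia* in 15 of 26 settings (at most 0.1363). With CaP rods *Ddit3* had 46.6 ± 6.50 CPM against 14.3 ± 2.69 CPM in M0, a log2 fold change of 1.72 ± 0.21 (SE, adjusted p = 0.001118), and was called in all 27 settings run. *Ier3* (log2 fold change 2.53, adjusted p = 0.03379) and *Gadd45b* (1.17, adjusted p = 0.04726), both NF-κB targets, were the others. *Ier3* lost its call without M0 replicate 1 or 3, CaP replicate 1 or 3 or any SiO2 library (adjusted p of at most 0.1957), and *Gadd45b* was called in 8 of the 27 settings, with an adjusted p of up to 0.3243 without M0 replicate 1. With SiO2 rods *Ddit3*, *Ier3* and *Gadd45b* were also higher than in M0, by log2 fold changes of 0.97, 1.78 and 0.83. These were not called (adjusted p = 0.1051, 0.2412 and 0.2928 from edgeR), and no listed gene was called between the rods.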

How the data were processed

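MH-S cells were profiled in 15 Smart-seq2 libraries of amplified cDNA without molecular identifiers, in 5 groups of 3. Per their methods, the authors aligned paired reads of 75 bases with STAR, quantified them with Salmon in nf-core/rnaseq on an Ensembl annotation and deposited whole-number counts per gene without normalization; these may be rounded Salmon estimates, which split reads between similar genes. GRCm39 is the build in the submitters' processing notes. All columns were mapped by name.

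Symbols, transcript lengths and GC content came from GENCODE vM21 (GRCm38), the longest coding transcript of each gene standing for it. Genes were filtered with filterByExpr, scaled by TMM and compared with edgeR 4.0.16 (quasi-likelihood, 15 libraries, group as the only term) in R 4.3.3, with Benjamini-Hochberg adjustment. Standard errors and 95% intervals were derived from the fitted value and its F statistic. No single gene can reach a two-sided exact permutation p under 0.1 in groups of 3. The tests were tried on simulated counts with 200 changed genes. Sequences were compared base by base, and upstream stretches by a global alignment with free end gaps.

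The alternatives were DESeq2 1.42.0, its size factors, no filter, at least 10 counts in every library, a replicate block, no fold threshold, thinning to the smallest library, summed *Bcl2a1* copies, only the 9 libraries without polarized cells, no 3 outlying libraries, and leaving out each library. The legacy quasi-likelihood, the GC offset and the sum of 3 copies were added after seeing the data. Over all pairs, same-numbered libraries deviated together no more often than others, so the numbers were not taken as pairs. Replicate 1 of M0 did run with replicate 1 of M1, CaP and SiO2 (r = 0.38, 0.55 and 0.51). It ran against replicate 1 of M2 (-0.20), and with SiO2 replicate 3 (0.66). The members and lists were chosen with earlier results of these data known. The text names all members, the 3 listed genes with the largest change per list and direction in M1 and M2, every listed gene called with rods, and the 3 genes most like each called member; *Bcl2l1* was added to the last after its values were seen. Depth limits the precision of low genes, and counting limits cover counting error only.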

Additional observations from a re-analysis of the deposited data

How the results depend on the processing

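The calls of *Bcl2a1b*, *Bcl2a1d*, *Bcl2* and *Bcl2l11* were kept under every alternative run, and that of *Pmaip1* in M2 was the least stable of the members. With a replicate block 3 of 10 members became 2 in M2 against M0, since *Pmaip1* had an adjusted p of 0.0871, and between M1 and M2 it had 0.06751. Same-numbered libraries had correlated deviations above 0.1 in 13 of 30 pairs (r from -0.7491 to 0.7038), against 27 of 60 pairs with unlike numbers. The members called in M1 against M0 were 1 where the 2 or 3 *Bcl2a1* copies were summed, since the sum is then a single gene, and 2 to 3 without single libraries. Without a filter *Bcl2l1* was called in M1 against M0, CaP against M0, SiO2 against M0 and M1 against M2, so that 1 member was called with each of the rods, and the cause was not tested. The listed genes called with CaP rods were 6 with DESeq2, 7 without a filter, 1 with the replicate block, 1 without the 3 outlying libraries and 1 to 4 without single libraries. With SiO2 rods they were 3 with DESeq2, 1 without a filter and 0 to 1 without single libraries, in M2 7 with DESeq2 and 1 to 7 without single libraries, and in M1 14 to 27 without single libraries. Of 29 member values larger than their standard error, 4 of 754 refits had the opposite sign, at adjusted p-values of at least 0.7486. These were *Bbc3* in M2 and *Bax* with CaP rods under the GC offset (log2 fold changes -0.172 and -0.0613), and *Bcl2a1d* with CaP rods against M0 and against SiO2 without CaP replicate 1 (-4.142e-04 and -0.0111, within ranges of -4.142e-04 to 0.417 and -0.0111 to 0.404). The 31 smaller values changed sign in 68 of 824 refits. Where the text orders group means or libraries for them, the order describes these libraries and no direction is claimed. The count of genes called over the whole table moved with the settings too. It ranged from 1511 to 3610 in M1, 316 to 1361 in M2, 30 to 968 with CaP and 8 to 205 with SiO2 rods. The share over all genes under each setting is not given, so the listed counts are not read as an excess. The groups of 3 libraries limit how small a change of a member could be called.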
